A study of Mus musculus with 15 samples.

Results

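The small RNAs described here came from mouse testis and map to remnants of LINE retrotransposons other than the young mouse L1 elements. A member is a locus, that is 1 exact genomic start, end and strand with its read count, whose repeat class is LINE and whose family is either not L1, or is L1 with a repeat name that does not begin with L1Md, Lx, L1_Mus, L1_Mur, L1_Rod or L1VL. There were 147070 such loci among the 8128951 loci of the 15 libraries, and between 21173 of them (flow-through replicate 1) and 48099 (input replicate 1) were present in a single library. The rule used names only and no read count. Not every member bore the name of an old element: the names L1, L1Lx, X9 and L1PB4, which belong to none of the mammalian groups L1MA to L1ME, other L1M names or HAL1, gave 879384 of the 9902938 member counts (8.88%), and no repeat name in the files holds the character _, so that L1_Mus may be listed as L1 and then kept.

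All 15 libraries were made from small RNA of the testis of C57Bl/6 males aged 8 weeks, and no mutation is named for any group. The mock-treated and the CMC-treated libraries (3 each) share 1 library kit. CMC is a carbodiimide that attaches to pseudouridine (Ψ) and blocks reverse transcription, so that molecules with Ψ are lost from the library. The other 9 libraries, made with another kit, were the input of an immunoprecipitation with an antibody against Ψ, the bound RNA (Ψ-IP) and the unbound RNA (flow-through), 3 each. The sources do not say whether replicates came from separate animals, so the p-values below measure the spread between these libraries, which may be technical, and in whole testis fewer cells of a type and less RNA per cell cannot be told apart. Library totals ran from 11575705 to 58399368 counts, of which the members took 2.07% to 2.94% (317262 to 1492421 counts).

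LINEs are retrotransposons that move by reverse transcription of their own RNA. L2, CR1 and the RTE families ceased to move long ago in the lineage of the mouse and survive as short, decayed copies, whereas L1 is still active. Piwi-interacting RNAs (piRNAs) are germline small RNAs that guide PIWI proteins to complementary RNA. In the adult testis most piRNAs are cut from long precursors made in spermatocytes, and a copy of an old element that lies inside such a precursor is processed along with it. The piRNAs usually begin with uridine, the base that Ψ synthases convert into Ψ.

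Sequences could be given for the members inside annotated exons, 10871 of 147070 loci (7.39%), which held 3.79% of the member counts. The loci chosen are abundant ones of L1, L2 and RTE-BovB and examples of called changes in Ψ-IP or after CMC, taken among loci of at most 30 nt outside protein-coding genes. No CR1 or RTE-X locus is among them. They are written 5′ to 3′ as RNA with every uridine, the possible substrate of pseudouridylation, in capitals. They were read from GENCODE transcripts of mouse build mm10 (GRCm38).
L1MD2, chr4:135629936-135629965, plus strand: UgUaUcUUgaUUgUggUgaUgaUUaUaUgg
L1MD2, chr4:135629936-135629960, plus strand: UgUaUcUUgaUUgUggUgaUgaUUa
L1, chr6:81894843-81894872, minus strand: UaaagaaUcgUgUccUcUgcaaaccagaUc
L1M4, chr17:27364279-27364304, plus strand: UaUcaaggacUcUgaggacUcaaaaa
L1M4, chr17:27364281-27364304, plus strand: UcaaggacUcUgaggacUcaaaaa
L2b, chr4:135628940-135628965, plus strand: UcUcUgUUcUgUUccUgUggccUagc
L2d2, chr7:73821874-73821903, plus strand: UaaaaUccUgUcUcUcUagUUccacUUUag
L2c, chr3:34876127-34876155, plus strand: UcaaacagaggUgUaUUUgacaaaUUcUg
MamRTE1, chr6:87989558-87989584, minus strand: UUccagggUccgaUcUgUcUgcUgcUc

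The L1MD2 and L2b loci on chromosome 4 lie in exons of the lincRNA 1700029M20Rik, the L2d2 locus in Gm21269, the L2c locus in Gm21388 and the L1M4 loci in Gm49794. All 9 sequences begin with uridine. Weighted by counts, 92.7% of the member reads with a sequence began with uridine (63.8% of the loci), with 96.0% in CR1, 93.4% in L1, 89.4% in L2 and 83.9% in RTE-BovB. By loci these families lay closer together, at 62.8%, 65.5%, 61.3% and 60.4%. The reads with a sequence come from few copies: in CR1 an X6A copy in Cbl held 33531 of 38740 counts, and in RTE-BovB 1 copy held 3581 of 4492. Adenine at position 10, the base that faces the first uridine of a partner in the ping-pong cycle of piRNA amplification, was present in 34.5% of the reads and 25.1% of the loci. By reads it was at 47.3% in L1 but at 8.79% in L2, 8.33% in CR1 and 2.32% in RTE-BovB, whereas by loci it was at 25.2%, 27.3%, 22.1% and 11.4%. In L1, the L1MD2 copy of chromosome 4 held 166524 of the 251153 counts with a sequence.

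By family, the remaining L1 names held 110504 loci and 56.8% of the member counts, L2 held 30212 loci and 35.8%, RTE-X held 983 loci and 4.76%, CR1 held 4697 loci and 2.62%, and RTE-BovB held 635 loci and 0.0504%. Penelope was listed at 39 loci with 97 counts in all and was not tested. The order of the 5 tested families was the same in the input and Ψ-IP libraries, with CR1 above RTE-X there, but RTE-X stood above CR1 in the mock-treated and CMC-treated libraries. In the input, L1 stood at 16676 ± 500 CPM, the count scaled to the library total (SD, n = 3), L2 at 7553 ± 23.6, CR1 at 842 ± 20.5, RTE-X at 418 ± 20.2 and RTE-BovB at 9.56 ± 1.01. In the mock-treated libraries the same families stood at 13806 ± 131, 9483 ± 94.9, 568 ± 14.7, 1638 ± 6.87 and 15.0 ± 1.27 CPM (n = 3). The kit and the treatment differ between these groups, so a gap between the input and the mock-treated levels cannot be told apart from the kit and was not tested.

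**Figure D1:**
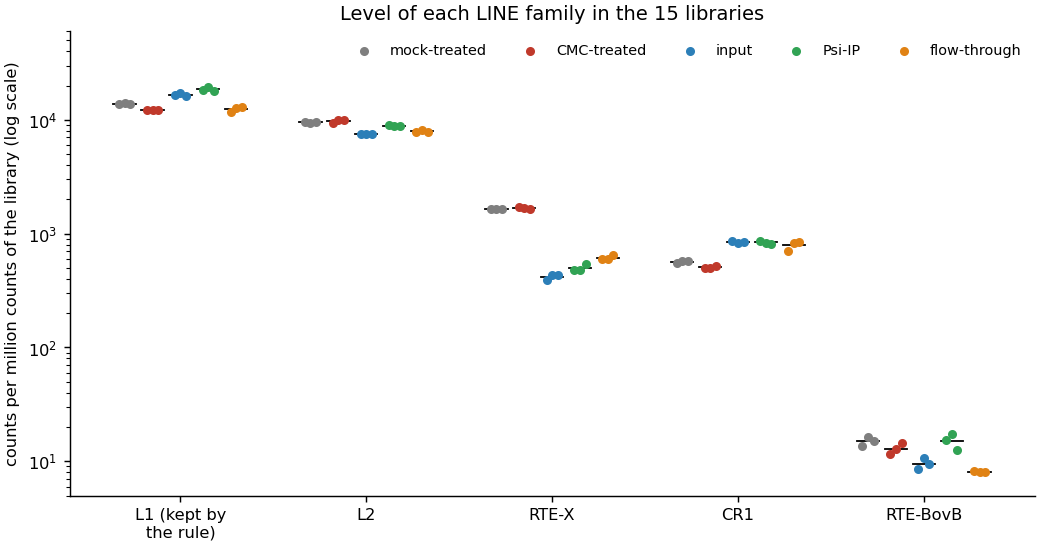
Level of each family in CPM of the library (log axis) in the 15 libraries, with 1 point for each library, coloured by group, and short lines at the means of 3 libraries. RTE-X lies at 1638 CPM on average in the mock-treated libraries and at 418 in the input, while replicates of a group lie close together.

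Few genomic copies made most of these RNAs. When loci of a repeat name with gaps of at most 500 nt were joined, the members formed 679 copies, and the 10 largest held 51.0% of the member counts. An L1M2 copy at chr9:67695715-67696640, between annotated genes, held 12.5% and was read 99.98% from the minus strand. By counts pooled over the 15 libraries, in which deeper libraries weigh more and the order within a kit may differ, next came an L2 copy at chr6:127817614-127817839, an L1Lx copy at chr7:52909739-52912045, an L2c copy at chr2:92550154-92550416 and an L4 copy at chr5:149804038-149804154. The L4 copy lies in an intron of the lincRNA Gm21221 and accounted for 99.7% of family RTE-X, so that the values of this family are those of 1 copy. CR1 was likewise led by 1 copy, at chr17:27341398-27342046, with 72.5% of its counts. Reads came from a single strand in most copies: 123 of the 132 most abundant copies had 95% or more of their counts on 1 strand. Joining all loci with gaps of at most 10 kb gave 953 regions, of which 294 held a member. The 10 regions with most member counts held 77.6% of the member counts and 44.9% of the counts of all loci. The paper limited its piRNA reads to known piRNA clusters, and how far this step sets the concentration was not tested.

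Reads of 29 to 31 nt prevailed in the members in every group, while by counts CR1 had more reads of 25 to 27 nt than the other families. The share at 25 to 27 nt was 11.1% ± 0.392 in the input, 9.11% ± 0.391 in Ψ-IP, 10.3% ± 0.287 in the flow-through, 14.4% ± 0.290 in the mock-treated and 15.6% ± 0.291 in the CMC-treated libraries (SD, n = 3 each). Lowest were all 3 Ψ-IP libraries, and no group overlapped the group it was compared with (exact permutation test, two-sided, p = 0.1 in each comparison, the smallest that 3 against 3 libraries allow, adjusted p = 0.12 over 12 tests). At 29 to 31 nt the share was 71.1% ± 0.887 in the input, 74.4% ± 0.872 in Ψ-IP and 71.3% ± 0.518 in the flow-through, again without overlap between Ψ-IP and either of the others. It was 60.0% ± 1.32 in the mock-treated and 57.9% ± 2.54 in the CMC-treated libraries, which overlapped (exact permutation test, p = 0.3). In CR1, 42.4% ± 0.197 of the input counts, 35.5% ± 1.07 of the Ψ-IP counts and 43.1% ± 1.06 of the flow-through counts had 25 to 27 nt, and the 3 Ψ-IP libraries were the lowest. The most frequent CR1 length was 29 nt in the input and Ψ-IP, and 26 nt in the mock-treated, CMC-treated and flow-through libraries. When each locus was counted once, the difference at 25 to 27 nt between Ψ-IP and flow-through turned to 1.44 percentage points higher in Ψ-IP. Opposite-strand 5′ ends that overlapped by 10 nt, the distance left by ping-pong cleavage, were 10.1% of the overlaps of 1 to 20 nt in the input, 10.05% in Ψ-IP, 12.7% in the flow-through, 7.80% in the mock-treated and 8.01% in the CMC-treated libraries.

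**Figure D2:**
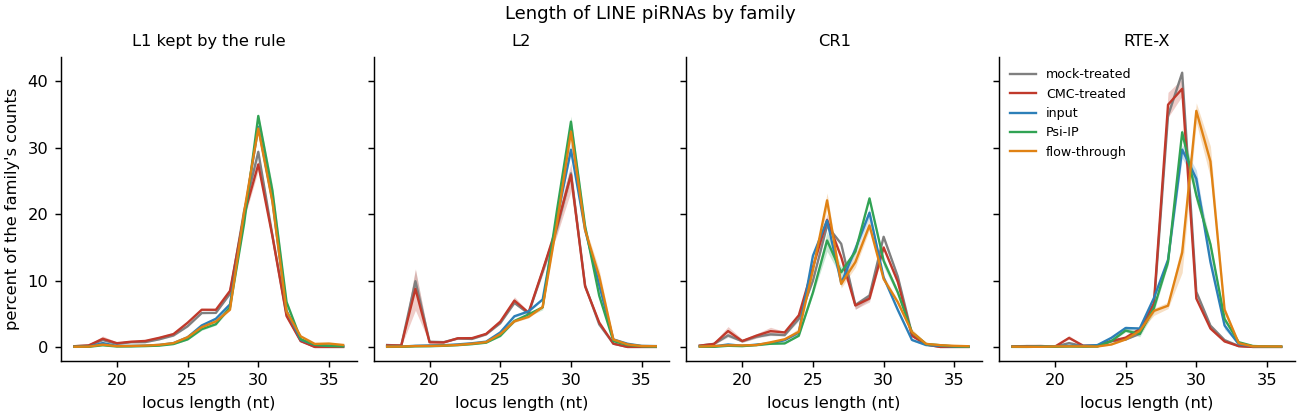
Share of the family's counts (percent) at each locus length (nt) for L1, L2, CR1 and RTE-X, with the mean of 3 libraries as a line for each group and a shaded band for their range. L1 and L2 peak at 30 nt in every group, while CR1 has a further maximum at 26 nt.

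The first comparison asked which members were recovered by the antibody against Ψ. In the edgeR quasi-likelihood test, with Benjamini-Hochberg adjustment over all loci tested and a threshold of 0.01, 931 of the 13907 tested members were higher in Ψ-IP than in the input (6.69%, against 5.45% of all loci) and 1431 were lower (10.3%, against 10.7% of all loci). These shares lay near the background. The median log2 fold change was 0.00 over the members and -0.10 over all loci tested. Higher loci were 656 of 9879 in L1, 211 of 3401 in L2, 46 of 459 in CR1, 16 of 154 in RTE-X and 2 of 14 in RTE-BovB. Lower loci numbered 1033, 336, 45, 17 and 0 in the same families. Loci of 29 to 31 nt were higher in 678 and lower in 824 of 7740 cases, while among loci of at most 23 nt 59 of 336 were lower. Leaving out 1 library changed the number of higher members to between 431 and 1050 and that of lower members to between 825 and 1433.

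Summed over each family, L2 rose in Ψ-IP against input, with a log2 fold change of 0.21 and an adjusted p of 8.1e-05 in the edgeR quasi-likelihood test over family sums. The other families did not pass at 0.01. L1 stood at a log2 fold change of 0.12 (SE 0.03, adjusted p = 0.011), RTE-BovB at 0.62 (adjusted p = 0.011), RTE-X at 0.24 (adjusted p = 0.019) and CR1 at -0.03 (adjusted p = 0.44). Of all 27 family sums tested, members or not, 51.9% were called. The family values depend on the scaling: with the scaling factors of the locus table, each shifted by about -0.12 on the log2 scale and no family of the set rose.

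Names within a family (each a subfamily) lay on both sides of 0. Of 44 names of the set tested in this comparison 11 rose and 6 fell. Over the sums of all 312 names 38.1% were called, with 53 higher and 66 lower, so that the share of members called lay near the background. The name L2, the plain label within family L2, rose most, with 356, 455 and 399 CPM (for names and loci on TMM-scaled library sizes) in the input and 783, 728 and 900 in Ψ-IP (log2 fold change 1.00), and the groups did not overlap. AmnL2-1 rose by 0.97, L2d2 by 0.72 and L2b by 0.23 in the same family. Among L1 names, L1ME3 rose by 0.73, L1ME3B by 0.63, L1MD by 0.56, L1MB7 by 0.34 and L1MB5 by 0.19. MamRTE1, the only name of family RTE-BovB in these files, rose by 0.63. Summed as a family the same counts did not pass, so this call depends on the level tested. L1ME3 turned to -0.18 when its 5 most abundant loci were left out. The names that fell were L1MA4 (log2 fold change -1.03), L1MB1 (-0.99), L3 of family CR1 (-0.94), L1MA8 (-0.92), L1MA10 (-0.73) and L1MD2 (-0.72). L1MA4 stood at 195, 199 and 180 CPM in the input and at 99.1, 88.5 and 93.8 in Ψ-IP, so that every Ψ-IP library lay below every input library. L1MD2 is the name of the chromosome 4 sequences shown above.

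**Figure D3:**
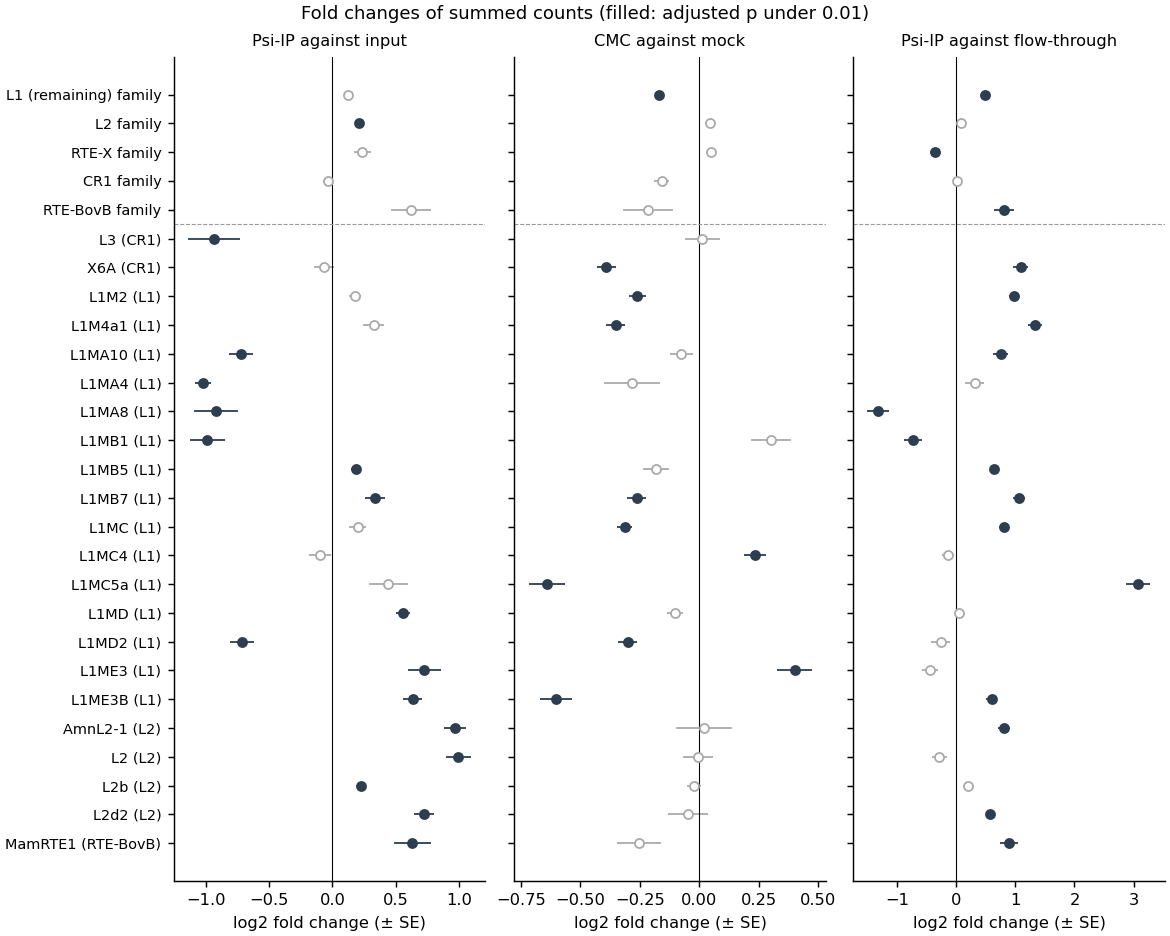
Log2 fold change of the summed counts of 5 families and of names past the threshold in Ψ-IP against input or CMC against mock, in the 3 comparisons, with error bars of 1 SE and filled points where the adjusted p was under 0.01. L1 names lie on both sides of 0 in Ψ-IP against input, from L1MA4 at -1.03 to L1ME3 at 0.73, and L1MC5a lies lowest with CMC (-0.64) and highest against flow-through (3.08).

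Single loci showed larger differences than their sums. The largest rises in Ψ-IP against input were 3 overlapping loci of the L1M2 copy on chromosome 9. Its 30-nt locus at chr9:67696031-67696060 stood at 21.1, 30.4 and 22.4 CPM in the input and at 177, 115 and 87.7 in Ψ-IP (log2 fold change 2.36, SE 0.21, edgeR adjusted p = 5.8e-25). Loci with the largest changes were named only where the groups did not overlap. The largest fall was in the same copy: the 27-nt locus at chr9:67696180-67696206 had 143, 55 and 122 counts in the input libraries and 0, 1 and 6 in the Ψ-IP libraries (log2 fold change -5.22). Outside this copy, an L1MB5 locus at chr14:24102915-24102946 rose by 2.35 and an L1Lx locus at chr7:52909793-52909823 by 2.34. An L1M2 locus at chr7:125328853-125328882, in an intron of 4933440M02Rik, stood at a log2 fold change of -4.62, and the L2c locus of chromosome 3 shown above at -3.92. The latter had 159, 48 and 136 counts in the input and 5, 7 and 6 in Ψ-IP. The L2d2 sequence of chromosome 7 had 58, 31 and 41 counts in the input and 79, 83 and 124 in Ψ-IP (log2 fold change 1.42, adjusted p = 1.2e-05).

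By mean share of the counts over the 15 libraries the first member was a 31-nt L1Lx locus at chr7:52911903-52911933, at 913 ± 122 CPM in the input and 816 ± 112 in Ψ-IP (n = 3, edgeR adjusted p = 0.54). Its libraries overlapped. The next by this measure, and the first by total counts, was the 30-nt L2 locus at chr6:127817749-127817778, at 110, 164 and 128 CPM in the input and 373, 362 and 519 in Ψ-IP (log2 fold change 1.64, SE 0.19). Its flow-through values were 417, 695 and 412 CPM. These use the library sizes of the flow-through comparison, while the Ψ-IP values use those of the comparison with the input. In the edgeR fit against flow-through the locus did not pass (log2 fold change -0.08, adjusted p = 0.85). A 29-nt L4 locus at chr5:149804108-149804136 stood at 74.8, 71.5 and 78.9 CPM in the input and 121, 128 and 157 in Ψ-IP. In the flow-through it stood at 12.87, 29.99 and 31.996 CPM, again on the library sizes of the flow-through comparison. Ψ-IP was the highest of these groups (log2 fold change 0.85 against input and 2.64 against flow-through, each from its own fit). The 19-nt L2 locus that shares its 5′ end with the 30-nt one reached 30431 to 46855 counts in the mock-treated libraries and 20742 to 30552 in the CMC-treated libraries, but 0 to 11 in the 9 libraries of the other kit.

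CMC treatment asked the converse question, which members were lost when Ψ blocked reverse transcription. Of 11378 members tested, 225 were lower in the CMC-treated than in the mock-treated libraries (1.98%, against 0.654% of all loci) and 160 were higher (1.41%, against 1.07% of all loci). The median log2 fold change was -0.13 over the members and 0.00 over all loci tested. Lower loci lay mostly in L1, with 204 of 8024 (2.54%), while L2 had 11 of 2792 (0.394%), CR1 9 of 368, RTE-BovB 1 of 28 and RTE-X 0 of 166. Higher loci were 88 in L1, 55 in L2, 12 in RTE-X, 5 in CR1 and 0 in RTE-BovB. By group of names, 29 of 612 L1MD loci (4.74%) were lower, of which 25 lay in 1 copy at chr15:74643788-74643973, while another L1MD copy of chromosome 15 had 0 lower and 8 higher of 164. Among the L1 names that are neither L1M nor HAL1, 53 of 1503 loci (3.53%) were lower, and 40 of these lay in the L1Lx copy of chromosome 7. Loci of 29 to 31 nt were lower in 146 of 4808 cases, while at 25 to 27 nt 30 were lower and 69 higher of 2680. In the sets of other loci, 1.25% of the L1Md loci, 1.22% of Lx and related names, 0 of the MIR loci and 0.638% of the loci outside repeats were lower. The count of lower members fell to 81 when mock-treated replicate 2 was left out, to 96 for CMC-treated replicate 2 and to 136 for mock-treated replicate 3. That of higher members was 104, 117 and 120 in the same order.

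Over family sums L1 fell with CMC, by 0.17 on the log2 scale (edgeR adjusted p = 0.0002), from 13806 ± 131 to 12181 ± 53.8 CPM (n = 3). CR1 stood at -0.16 (adjusted p = 0.012) and passed the threshold when the replicate numbers were a block, which gave 2 lower families in place of 1. L2, RTE-X and RTE-BovB did not pass, at 0.05, 0.05 and -0.22 (adjusted p = 0.15 each). The share called among all family sums was 15.4%. Of 46 names tested, each a subfamily, 8 fell and 2 rose. Over the sums of all 348 names 7.76% were called, with 17 lower and 10 higher. L1MC5a fell most (log2 fold change -0.64), from 523, 532 and 484 CPM in the mock-treated to 346, 356 and 285 in the CMC-treated libraries, with no overlap. L1ME3B followed at -0.60, X6A of family CR1 at -0.39, L1M4a1 at -0.35, L1MC at -0.31, L1MD2 at -0.30, and L1MB7 and L1M2 at -0.26. L1ME3 rose by 0.40 and L1MC4 by 0.23, but neither was called when any of the 3 mock-treated libraries was left out, and 1 name of the set rose when CMC-treated replicate 1 or replicate 3 was.

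The largest falls of single loci with CMC lay in the L1Lx copy of chromosome 7, at chr7:52909955-52909985 (log2 fold change -1.45, SE 0.21), chr7:52909959-52909988 (-1.35) and chr7:52909959-52909987 (-1.32). An L1MD locus at chr15:74643789-74643815 stood at -1.27. The L1MD2 sequences of chromosome 4 shown above were lower as well, the 30-nt form by 0.51 and the 25-nt form by 0.73 on the log2 scale. The 25-nt form had 590, 1201 and 784 counts in the mock-treated libraries and 521, 269 and 384 in the CMC-treated ones. Every mock-treated count lay above every CMC-treated count. In Ψ-IP against input the 30-nt form fell (log2 fold change -1.43, adjusted p = 2.4e-11), and the 25-nt form stood at -1.01 (adjusted p = 0.021).

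Among loci higher with CMC, most were versions of an abundant RNA with a few nucleotides missing at the 5′ end. This count was made after the values had been seen. Of the 160 higher members, 125 (78.1%) had a partner with the same 3′ end that began 1 to 5 nt further 5′ and had at least 10 times as many mock-treated counts, against 1 of the 225 lower members and 1264 of all 11378 tested (11.1%). Missing were 1 nt in 38 cases, 2 nt in 49, 3 nt in 15, 4 nt in 15 and 5 nt in 8. A locus that rises needs few mock-treated counts, which by itself makes a 10-fold larger partner easier to find. Partners longer at the 3′ end, which meet the same condition, were present for 49 of the 160 (30.6%) and for 14.4% of all members tested. The same 5′ pattern was seen over all loci, in 3758 of 5979 higher loci (62.9%) against 9.56% of those tested, and for members higher in Ψ-IP against input it was at 2.69%, against 8.09%. The 18-nt L2 locus at chr6:127817750-127817767 had 1, 2 and 2 mock-treated counts and 94, 92 and 211 CMC-treated counts, and begins 1 nt inside the abundant 19-nt L2 locus with its 120217 mock-treated counts. The 27-nt L1M2 locus at chr9:67696573-67696599 rose too, with 39, 61 and 43 mock-treated counts and 356, 169 and 209 CMC-treated counts (log2 fold change 2.71). The L1M4 sequences of chromosome 17 shown above share a 3′ end but do not meet the 10-fold condition. The form that begins at 27364279 had 206, 314 and 218 mock-treated counts, and the form shorter by 2 nt had 38, 68 and 47. They stood at log2 fold changes of 0.72 and 0.99, both higher with CMC.

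Against the flow-through, the RNA the antibody left unbound, far more members were higher in Ψ-IP. The same Ψ-IP libraries serve here and in the comparison with the input. Of 13907 members 2166 were higher (15.6%, against 9.3% of all loci) and 331 lower (2.38%, against 3.56% of all loci), with a median log2 fold change of 0.56 over the members and -0.02 over all loci. In L1 1726 of 9879 loci were higher (17.5%), in L2 380 of 3401 (11.2%), in CR1 42 of 459 and in RTE-X 15 of 154. In L1MC 19.9% of loci were higher, with a median of 1.09. Of the L1Md loci, 17.4% were higher. Family L1 rose by 0.50 (edgeR adjusted p = 7.2e-05) and RTE-BovB by 0.81 (adjusted p = 0.003), RTE-X fell by 0.37 (adjusted p = 0.002), L2 stood at 0.09 (adjusted p = 0.038) and CR1 at 0.01 (adjusted p = 0.89), while 74.1% of all family sums were called. The call for RTE-X depends on the scaling: with the locus-table factors every family sum shifted by about 0.33 on the log2 scale, RTE-X stood at -0.03 (adjusted p = 0.84), 4 families rose and none fell.

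By name (subfamily), 24 of 43 rose and 6 fell. Over the sums of all 312 names 62.2% were called, with 97 higher and 97 lower. L1MC5a rose most, from 32.3, 47.8 and 48.6 CPM in the flow-through to 313, 479 and 293 in Ψ-IP (log2 fold change 3.08), with a wide gap between the groups. L1MA5 rose by 1.93, L1M4a2 by 1.46, L1M4a1 by 1.33, X6A by 1.09, L1MB7 by 1.06, L1 by 1.02 and L1M2 by 0.98. L1MA8 fell by 1.32, L1M1 by 0.85, L3b by 0.76, L1MB1 by 0.73, L1MA6 by 0.43 and L4 by 0.28. The L4 copy of chromosome 5 held 99.7% of family RTE-X, whose call depended on the scaling. Summed by copy, 0 of the 2 tested copies of the RTE families fell.

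Loci that were both higher in Ψ-IP against input and lower with CMC, the combination that Ψ in the RNA would give in both assays, numbered 50 of the 6188 members tested in both (0.808%), against 875 of 293568 among all loci (0.298%). There were 2 of 1030 in L1Md and 23 of 3000 in Lx and related names. The 50 loci were concentrated, with 15 in the L1Lx copy of chromosome 7, 7 in the L1M2 copy of chromosome 9 and 6 in an L1MA6 copy of chromosome 8. The most abundant was the 30-nt L1M2 locus at chr9:67696572-67696601. It stood at 70.0, 78.2 and 76.1 CPM in the input and 162, 147 and 143 in Ψ-IP, then at 267, 271 and 275 in the mock-treated and 180, 130 and 126 in the CMC-treated libraries. Neither pair of groups overlapped, and the log2 fold changes were 1.01, -0.90 and, against flow-through, 4.65. The 27-nt locus that rose with CMC lies within this 30-nt locus and differs from it at both ends. The 32-nt L1MC5a locus at chr15:59268492-59268523 followed, with log2 fold changes of 1.02 in Ψ-IP against input, -0.62 with CMC and 5.30 against flow-through. In L2, the L2c locus at chr14:24095129-24095158 stood at 8.57, 9.84 and 7.37 CPM in the input, 16.8, 21.9 and 20.02 in Ψ-IP, 69.3, 69.5 and 69.6 in the mock-treated and 54.5, 44.9 and 44.1 in the CMC-treated libraries, again without overlap.

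Copies were also summed, a level chosen after the values had been seen. In Ψ-IP against input 43 of 127 tested copies of the set rose and 22 fell, while 44.4% of all 1128 copies were called (241 higher and 260 lower). Against flow-through 65 of 126 rose and 25 fell, while 58.4% of all 1120 were called (332 higher and 322 lower). With CMC 18 of 137 fell and 3 rose, while 4.83% of all 1367 were called (44 lower and 22 higher), and none of the set was called without mock-treated replicate 2 or without mock-treated replicate 3. The L1M2 copy of chromosome 9 had log2 fold changes of 0.27 against input, -0.27 with CMC and 1.18 against flow-through, all past the threshold. The L1MC5a copy of chromosome 15 stood at -0.65 with CMC and 3.47 against flow-through, both past the threshold, and at 0.51 against input (adjusted p = 0.011). The L2 copy of chromosome 6 rose by 1.21 against input but stood at -0.02 with CMC (adjusted p = 0.89) and -0.21 against flow-through (adjusted p = 0.18).

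Within the L1M2 copy of chromosome 9, neighbouring RNAs behaved differently. Its reads used 826 distinct 5′ ends on the minus strand, the most used of which held 14.3% of the counts. Of 1303 of its loci tested against the input, 111 were higher (8.52%) and 181 lower (13.9%), against 5.45% and 10.7% of all loci, with a median log2 fold change of -0.08 and quartiles at -1.15 and 0.81. The stretch from 400 to 499 nt along the copy, counted from its 5′ side, the highest coordinate, to the 5′ end of each locus, had 30 lower and 0 higher of 67 loci (median -1.99), and the next stretch, from 500 to 599 nt, had 17 higher and 5 lower of 82 (median 0.93). From 800 to 899 nt, 24 of 115 loci were higher. With CMC 26 of 1094 loci were lower and 30 higher (median -0.19), against 0.654% and 1.07% of all loci. Of these, 18 lower and 10 higher lay in the first 100 nt, where 255 loci were tested, and from 200 to 299 nt 11 were higher and 0 lower. Against flow-through 284 loci were higher and 27 lower (median 0.95), against 9.3% and 3.56% of all loci.

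**Figure D4:**
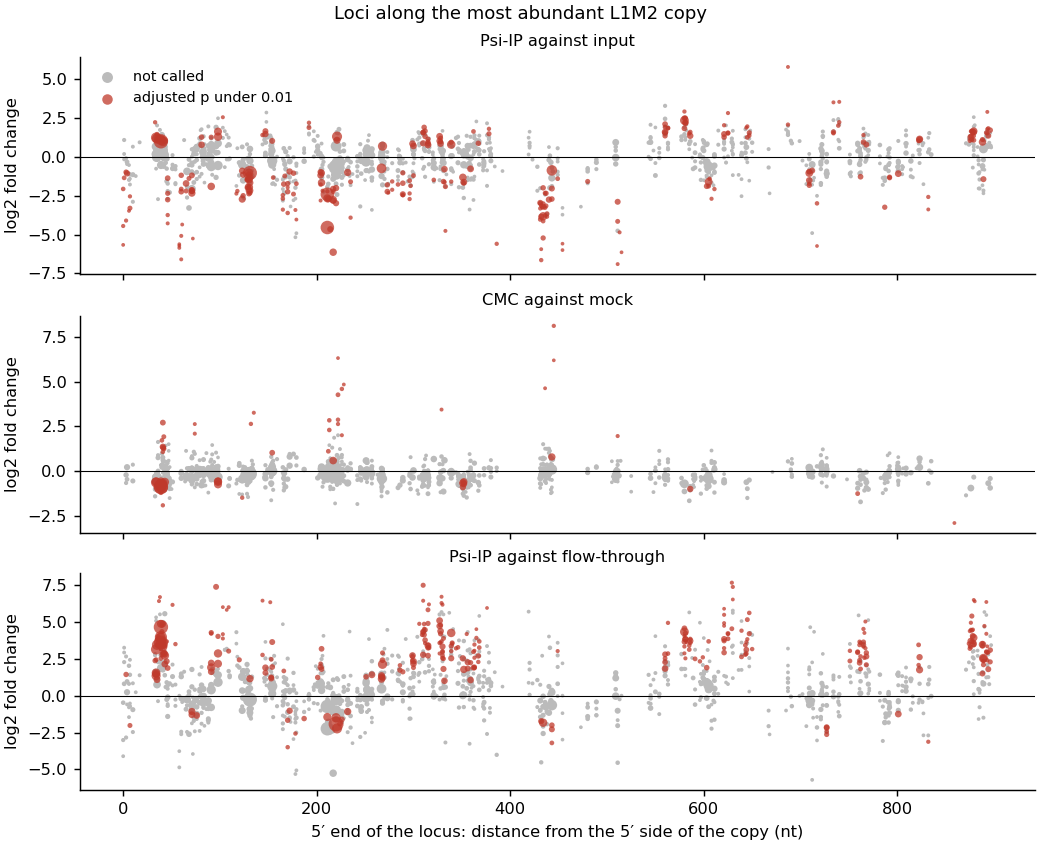
Log2 fold change of the tested loci of the L1M2 copy of chromosome 9 by distance of their 5′ end from the 5′ side of the copy (nt) in the 3 comparisons, with 1 point per locus, larger for loci with more counts, and called loci (adjusted p under 0.01) in red. In Ψ-IP against input the loci from 400 to 499 nt lie low, with a median of -1.99, and those from 500 to 599 nt lie high, with a median of 0.93.

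The members with a sequence could be arranged by uridine content, the number of possible Ψ sites relative to length. In Ψ-IP against input the median log2 fold change was -0.52 in loci with under 25% uridine (170 loci), -0.14 at 25 to 35% (255 loci), 0.27 at 35 to 45% (242 loci) and 0.72 at 45% or more (72 loci). Medians thus rose with each class. With CMC they were 0.27, -0.11, -0.17 and -0.60 in the same order (165, 263, 227 and 132 loci), the reverse direction. Of the 132 loci with 45% or more 8 were lower (6.06%), against 0 in the other classes. Over all tested loci with a sequence, 6.06% of that class were lower too (379 of 6250), so the members lay at the background. Without the L1MD2 copy of chromosome 4, 4 of 95 members were lower. Against flow-through they were -0.98, -0.32, 0.86 and 2.04. The loci come from few copies (18, 22, 15 and 6 in the comparison with the input) and overlap each other, so they are not independent and no test was made. Without the L1MD2 copy of chromosome 4, which gave the most loci, an alternative chosen after the values had been seen, the medians were -0.52, -0.07, 0.29 and 1.03 in Ψ-IP against input and 0.26, -0.12, -0.18 and -0.60 with CMC. The order was not particular to LINEs: over all tested loci with a sequence the medians were -0.31, -0.25, 0.10 and 0.52 in Ψ-IP against input, and 0.21, -0.01, -0.25 and -0.57 with CMC.

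**Figure D5:**
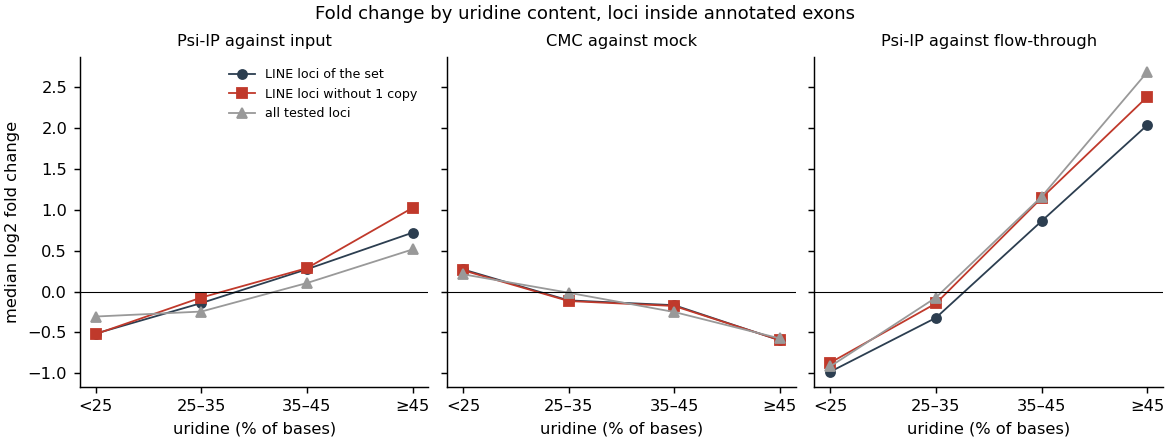
Median log2 fold change by uridine content (percent of bases, 4 classes) in the 3 comparisons for the members, for the members without the L1MD2 copy of chromosome 4 and for all tested loci with a sequence. The medians rise with uridine in Ψ-IP, from -0.52 to 0.72 in the members against input, and fall with uridine after CMC, from 0.27 to -0.60.

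The members were compared with other sets by ratio. The log2 ratio of their summed counts to those of L1Md differed by 0.00 between Ψ-IP and input (exact permutation test, two-sided, p = 0.8), by 0.11 between CMC-treated and mock-treated libraries (p = 0.1) and by -0.46 between Ψ-IP and flow-through (p = 0.1). To Lx and related names the differences were 0.00 (exact permutation p = 0.9), 0.03 (p = 0.2) and 0.10 (p = 0.1), and that with CMC turned to -0.02 without the 5 most abundant loci of each set. The ratio to MIR, short interspersed elements of a similarly old age, was higher by 0.50 in Ψ-IP against input, lower by 0.25 with CMC (a difference of -0.25) and higher by 0.66 against flow-through (exact permutation p = 0.1 each). To loci outside repeats the differences were 0.18, -0.08 and 0.42 (p = 0.1 each in the exact permutation test). In these designs p cannot go below 0.1, and none passed after adjustment over the 12 ratios, with 0.133 where p was 0.1.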

How the data were processed

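Small RNA of mouse testis was sequenced in 15 libraries, 3 per group. The authors trimmed the reads with Cutadapt, kept 14 to 44 nt, set tRNA fragments aside, aligned with Bowtie 2 to mm10 and intersected the alignments with repeats using BEDTools. The deposited values are raw counts per locus. How reads with several mapping positions were counted is not given in the sources used here, so counts of near-identical copies are uncertain. Starts were taken as 0-based and are given 1-based.

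The 15 tables were joined by locus. Loci with more than 20 counts over the libraries of an assay (9 or 6) were tested with edgeR 4.0.16 in R 4.3.3 (quasi-likelihood test, TMM scaling, Benjamini-Hochberg adjustment over all loci, threshold 0.01). Sums per family, repeat name and copy were tested alike where they averaged at least 100 counts per library, and shares and ratios with exact permutation tests (SciPy 1.17.1). Scripts were tested on simulated data. DESeq2 1.42.0, other scalings and filters, a replicate block and leaving out each library were the alternatives. Named loci were those with the largest changes in every pair of libraries at an average of at least 50 counts, the most abundant ones, and the most abundant with both changes. Loci of chromosome 18 were tested and counted but are not named here. Values per locus and name are CPM (counts scaled to a common library size) on TMM-scaled library sizes, and family levels are CPM on the unscaled totals. Members and lists were chosen with earlier results of these data known.

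Same-numbered mock-treated and CMC-treated libraries deviated together over loci averaging over 50 counts (correlations 0.124, 0.147 and 0.293), which by the limit of 0.1 counted as pairing. This is uncertain: over loci averaging over 10 counts the correlations were 0.0525, 0.0714 and 0.166, a differently numbered pair reached 0.229 at 50 counts, and the labels do not say that libraries were paired. Counting noise did not account for the spread in any pair of replicates (chi-square per degree of freedom 1.63 to 6.05), so none was merged.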

Additional observations from a re-analysis of the deposited data

How the results depend on the processing

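The limits are as follows. A locus needs about 20 counts to be tested, most members lie below this, and a few copies dominate the sums, so the family and name values describe those copies. In RTE-X the family is 1 copy. The cause was not tested for any change below except where fewer loci or libraries enter by construction.

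Among loci, the number higher in Ψ-IP against input was 610 with the DESeq2 Wald test and 411 with no filter on low counts, and the number lower was 894 with the Wald test and 832 among loci with more than 100 counts. With CMC 100 were higher with the Wald test and 91 among loci with more than 100 counts, and 135 were lower with no filter. Against flow-through 1434 were higher at more than 100 counts and 201 lower with no filter. Leaving out 1 library gave 431 to 1050 higher and 825 to 1433 lower in Ψ-IP against input, 104 to 143 higher and 81 to 271 lower with CMC, and 1561 to 1923 higher and 211 to 316 lower against flow-through.

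Of the families, 4 rose in Ψ-IP against input with the Wald test, 3 with a replicate block, 2 with loci of 24 to 33 nt, with no filter on sums and with only L1M and HAL1 names, and 0 with the scaling of the locus table (1 to 3 when 1 library was left out). With CMC 2 fell with the Wald test, DESeq2 size factors, locus-table scaling, 24 to 33 nt, no filter and the replicate block, and 1 to 2 when 1 library was left out. Against flow-through 4 rose and 0 fell with the locus-table scaling, 1 rose with the replicate block, and leaving out 1 library gave 1 to 2 that rose and 0 to 1 that fell. Of the names, 17 rose in Ψ-IP against input with the replicate block, 7 to 15 when 1 library was left out, and 0 to 2 rose and 7 to 10 fell with CMC. L1ME3 in Ψ-IP against input turned to -0.18 without its 5 most abundant loci. Of the copies, 5 rose with CMC by the Wald test and 37 fell in Ψ-IP against input with no filter. Leaving out 1 library gave 27 to 40 that rose in Ψ-IP against input, and 0 to 2 that rose and 0 to 15 that fell with CMC.

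When each locus was counted once, 3 differences in shares reversed: 1.44 percentage points at 25 to 27 nt in Ψ-IP against flow-through, -0.117 for the plus strand with CMC and 0.519 for the plus strand in Ψ-IP against input. Of the ratios to other sets, that to Lx and related names with CMC changed sign, to -0.02, without the 5 most abundant loci of each set. The ratios near 0 in Ψ-IP against input changed sign when 1 library was left out, between -0.0470 and 0.0469 for L1Md and between -0.0201 and 0.0154 for Lx and related names. The replicate numbers did not pair the Ψ-IP libraries with the input (correlations 0.254, 0.303 and -0.0318) or with the flow-through (0.0947, 0.180 and -0.0434), so the block there is given only as a value.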

Other observations

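The share of member counts on the plus strand of the genome, which follows the orientation of the leading copies, was 38.2% in the input, 36.5% in Ψ-IP, 43.9% in the flow-through, 50.3% in the mock-treated and 51.9% in the CMC-treated libraries (means, n = 3). L2 lay mostly on the plus strand in the mock-treated libraries (82.9%), and at 51.5% in the input. In RTE-X, whose leading L4 copy is read from the minus strand, the share was 0.282% in the mock-treated libraries.

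Other abundant copies differed in their response. An L1MB5 copy at chr9:67723585-67723854, between genes, stood at log2 fold changes of 0.46 in Ψ-IP against input and 1.29 against flow-through, both past the threshold, and at -0.25 with CMC (edgeR adjusted p = 0.035). The L2c copy at chr7:73114853-73114913 fell against flow-through (-0.78) and did not pass in the other comparisons. The CR1 copy at chr17:27341398-27342046, whose interval overlaps an exon of Gm10505, had 53.5% of its counts at 25 to 27 nt. The L1M2 copy of chromosome 9 had 7.30% there.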
